A study of Mus musculus with 14 samples.

Results

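Hippocampal RNA of CARIP-/- (knockout) mice was compared with that of wild-type mice in 4 libraries, 2 of each genotype, out of 14 in a series that also sampled cerebellum and cerebral cortex. The knockout libraries carry the numbers 1 and 2 in their titles and the wild-type ones the numbers 2 and 3, and are called by those numbers here. All mice were C57BL/6. The labels give no age, no sex, no account of how the allele was made and no meaning of the numbers. Nothing says that the libraries came from separate animals, so p-values measure the spread between these libraries, which may be technical. The RNA was total RNA, isolated by TRIzol with a DNaseI step. It came from bulk tissue, in which fewer cells of a type and less RNA per cell cannot be told apart.

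The hippocampus holds the principal neurons of the CA fields and the dentate gyrus, local inhibitory neurons and glia, and it borders the subiculum, the choroid plexus and myelinated tracts. It is rich in receptors for corticosteroids, which on binding the hormone change the transcription of target genes. The symbols and aliases of the annotation used here hold no entry CARIP, and the targeted gene was therefore not read.

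Knockout libraries 1 and 2 held 23.5 and 23.8 M counted reads, and wild-type libraries 2 and 3 held 25.1 and 26.9 M. Mitochondrial genes took 3.68% and 3.33% of reads in knockout, against 2.85% and 3.05% in wild type. The labelled tissue matched its markers. Prox1, a transcription factor of dentate granule neurons, had a median of 199 CPM (counts scaled to a common library size, with TMM factors) in hippocampus, against 25.1 CPM in cortex. Fibcd1, of CA1 neurons, had 124 CPM, against 6.84 CPM in cortex. The libraries did not all pair by genotype. Knockout 1 and 2 were the closest pair, with an SD of the log2 ratio of 0.308 over 18598 genes, and knockout 2 and wild type 3 followed at 0.331, ahead of wild type 2 and 3 at 0.391.

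Across 24680 genes tested, 0 passed an adjusted p of 0.05 between genotypes (edgeR's quasi-likelihood test with Benjamini-Hochberg adjustment, 0% called). At an unadjusted p under 0.05 there were 472 genes (1.91%), of which 275 were higher (1.11%) and 197 lower (0.798%) in knockout, where 1234 would be expected with no difference. That fit took its spread from all 14 libraries, whose biological coefficient of variation was 24.7%. The coefficient was 11.9% in the edgeR fit to the hippocampal libraries alone. The count below 1234 therefore does not show that differences were absent. Fitted alone with edgeR, the hippocampal libraries called 4 of 21988 genes (0.0182%), namely Sgk1, Fam107a, Etnppl and Tshz2. DESeq2 on all libraries called 2 genes (0.0081%), Hba-a1 and Hbb-bs, and limma with library quality weights 3 (0.0122%), these and Sgk1. Every gene named below had an adjusted p of 1 in the edgeR fit to all libraries. Levels and log2 fold changes (knockout over wild type, ± SE) are therefore given as values that did not pass there, and calls by other fits are named beside them or in the paragraph on DESeq2 below. How counting used strand is not given in the labels, so values of genes whose exons another gene overlaps on the opposite strand are uncertain. Among the genes named these are Alas2, Ccdc162, Col4a3, Col6a4, Elovl1, Gpr17, Hmgcs1, Kctd8, Nr3c2, Pdgfra, Plin4, Prox1, Rbm3, Scn9a, Selp, Sult1a1, Tnc and Tshz2.

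Sgk1, a serine/threonine kinase induced by glucocorticoids and osmotic stress, lies on chromosome 10 (GRCm38, 21882184 to 21999903, plus strand). It had 82.0 and 84.4 CPM in knockout, against 138 and 154 CPM in wild type. The genotypes did not overlap, and the knockout libraries lay close together. The means were 83.2 ± 1.69 CPM in knockout and 146 ± 10.9 CPM in wild type (SD, n = 2 each), and the log2 fold change was -0.81 ± 0.18. Its adjusted p was 0.0213 in edgeR on the hippocampal libraries alone and 0.0406 in limma with quality weights. It was 0.233 in DESeq2 on all libraries, and ranged from 4.18e-08 to 1 over the alternatives. The low end came from DESeq2 on the hippocampal libraries alone, a fit chosen after seeing the data. The difference in the other regions was -0.68 ± 0.15 in cerebellum and -0.42 ± 0.18 in cortex. Knockout cortex 2 was unlike the other cortical libraries in the thalamic marker Tcf7l2, whose values are given with the interaction terms below. Every cortical difference given here and below carries this caution.

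Fam107a, an actin-associated protein whose transcript is known to rise with stress and glucocorticoids, lies on chromosome 14 (8296274 to 8318023, minus strand). It had 644 and 578 CPM in knockout, against 361 and 311 CPM in wild type. Both knockout libraries were above both wild-type ones. The means were 611 ± 46.8 CPM in knockout and 336 ± 35.5 CPM in wild type (SD, n = 2 each), and the log2 fold change was 0.87 ± 0.22. Its adjusted p was 0.0213 in edgeR on the hippocampal libraries alone and 0.417 in DESeq2 on all libraries. It ranged from 1.47e-09 to 1 over the alternatives, with the low end again from DESeq2 on the hippocampal libraries alone. The difference was 0.80 ± 0.18 in cerebellum and 0.89 ± 0.22 in cortex, the narrowest range over the regions among the 24 genes with the smallest p.

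A promoter of each of these genes is shown because both are known to answer to glucocorticoids and they differed in opposite directions. Each line is a RefSeq window (GRCm38.p6) from 250 bases before to 50 after a listed start, 5′ to 3′ on the gene's strand. Capitals mark a match to the glucocorticoid response element, searched on both strands as GNACA and TGTNC with NNN between them. The windows are chr10:21993640-21993939, plus strand, 1 of 6 of Sgk1, and chr14:8309730-8310029, minus strand, 1 of 3 of Fam107a. They were shown as windows that hold the match, so its presence in them is not a result. Another window of Fam107a, chr14:8309728-8310027, held the same site.
Sgk1: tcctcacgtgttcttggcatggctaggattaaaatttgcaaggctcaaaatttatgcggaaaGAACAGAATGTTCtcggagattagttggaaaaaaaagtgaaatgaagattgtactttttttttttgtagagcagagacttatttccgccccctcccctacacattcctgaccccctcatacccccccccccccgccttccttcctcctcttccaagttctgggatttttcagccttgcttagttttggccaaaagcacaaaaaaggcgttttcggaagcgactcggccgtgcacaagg
Fam107a: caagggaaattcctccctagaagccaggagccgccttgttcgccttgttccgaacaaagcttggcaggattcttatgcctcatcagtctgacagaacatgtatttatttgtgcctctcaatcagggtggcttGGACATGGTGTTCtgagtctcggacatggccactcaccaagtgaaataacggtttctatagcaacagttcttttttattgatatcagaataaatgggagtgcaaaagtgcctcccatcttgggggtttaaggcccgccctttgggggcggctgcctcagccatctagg
The match began 188 bases before the listed start in Sgk1 and 118 before it in Fam107a. Of 32851 windows of this length, 0.475% held one. Among the genes of the glucocorticoid list below, 3 of 16 with a window held one, namely Map3k6, Mt1 and Sgk1. Those 16 genes had 26 windows, and a gene was counted if any of them held a match. Shares of genes and of windows are therefore not directly comparable. A match describes letters only, and binding was not measured.

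Etnppl, an astrocyte enzyme that breaks down phosphoethanolamine, lies on chromosome 3 (130617448 to 130637521, plus strand). It had 52.5 and 48.4 CPM in knockout, against 27.1 and 26.5 CPM in wild type. Every knockout value was above every wild-type value. The means were 50.5 ± 2.91 CPM in knockout and 26.8 ± 0.404 CPM in wild type (SD, n = 2 each), and the log2 fold change was 0.91 ± 0.18. Its adjusted p was 0.0213 in edgeR on the hippocampal libraries alone and 0.0758 in DESeq2 on all libraries. It ranged from 6.29e-07 to 1 over the alternatives, with the low end from DESeq2 on the hippocampal libraries alone. The difference was 0.42 ± 0.15 in cerebellum and 1.34 ± 0.18 in cortex. Tshz2, a zinc finger transcription factor, was named after its values were seen. It had 11.2 and 14.7 CPM in knockout, against 4.28 and 4.17 CPM in wild type, without overlap. Its log2 fold change was 1.62 ± 1.13 in the fit to all libraries, and its adjusted p was 0.0275 in edgeR on the hippocampal libraries alone. The range over the alternatives was 9.00e-07 to 1, with the low end from the same DESeq2 fit chosen after seeing the data.

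**Figure D1:**
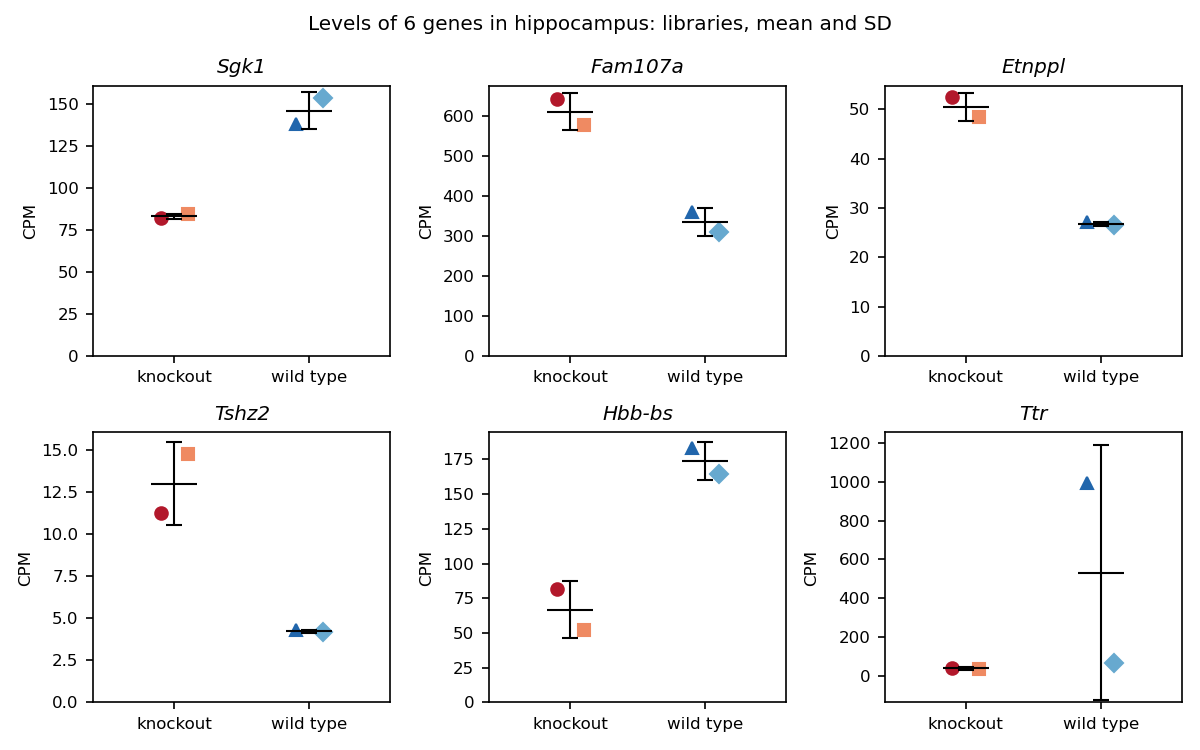
CPM of 6 genes in each knockout library (left) and wild-type library (right), with the mean and SD of each genotype. Sgk1 and Hbb-bs were lower and Fam107a, Etnppl and Tshz2 higher in both knockout libraries, while wild type 2 stood apart for Ttr at 995 CPM.

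Among the other genes with the smallest p on the higher side, Ogn, a small leucine-rich proteoglycan, had 10.6 and 10.4 CPM in knockout, against 4.65 and 2.79 CPM in wild type (1.499 ± 0.32). Hlf, a transcription factor under the circadian clock, had 192 and 184 CPM in knockout, against 119 and 139 CPM in wild type (0.54 ± 0.12). The rule for naming asked that the genotypes not overlap, so the separation seen in each of these genes is not a result.
Kctd8, an auxiliary subunit of GABA-B receptors, had 4.99 and 5.36 CPM in knockout, against 2.47 and 3.07 CPM in wild type (0.90 ± 0.21). Cdh22, a cadherin, had 14.8 and 18.9 CPM in knockout, against 7.42 and 10.8 CPM in wild type (0.89 ± 0.20). Scn9a, a voltage-gated sodium channel, had 12.5 and 13.4 CPM in knockout, against 6.16 and 8.06 CPM in wild type (0.87 ± 0.22). These membrane proteins had similar relative differences, at 1.82 to 1.87 times the wild-type mean.
Slc25a34, of the mitochondrial carrier family, had 6.47 and 6.46 CPM in knockout, against 2.81 and 2.71 CPM in wild type (1.22 ± 0.30). Sema3f, a secreted guidance cue, had 2.85 and 3.88 CPM in knockout, against 1.47 and 1.61 CPM in wild type (1.13 ± 0.25). The adaptor protein Grb7 had 1.47 and 2.44 CPM in knockout, against 0.587 and 0.629 CPM in wild type (1.68 ± 0.39). Rsg1, a small GTPase, and the predicted gene Gm7909 lay as low as Grb7, under 3 CPM in every library, with log2 fold changes of 1.71 ± 0.44 and 1.72 ± 0.42.

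On the lower side, 4 of the 12 genes with the smallest p were globins, the oxygen carriers of red blood cells. Hba-a1 had 25.8 and 16.3 CPM in knockout, against 58.9 and 60.2 CPM in wild type (-1.499 ± 0.25). Its adjusted p was 0.00161 in DESeq2, 0.0387 in limma with quality weights and 0.183 in edgeR on the hippocampal libraries alone. Hbb-bs had 81.4 and 52.3 CPM in knockout, against 183 and 164 CPM in wild type (-1.38 ± 0.27), with adjusted p-values of 0.0241, 0.0406 and 0.399 in those 3 fits. Knockout 2 was the lowest library for each globin. Globin genes include near-identical copies between which counting can split reads, so single members are uncertain. Hba-a2 had 2.19 and 1.61 CPM in knockout, against 10.7 and 4.60 CPM in wild type, and Hbb-bt had 8.12 and 4.67 CPM in knockout, against 21.6 and 13.7 CPM in wild type.
Of 7 erythroid markers 7 were lower, 4 without overlap, with a median of -1.38 (range -1.87 to -1.09 on leaving out each hippocampal library in turn). The 4 without overlap were the globins above, which the rule had named for not overlapping, and the median was the value of Hbb-bs. The list therefore adds no separate result. The markers beside the globins, Alas2 and Slc4a1 among them, overlapped between genotypes. Alas2, which starts haem synthesis in red cells, had 24.3 and 20.6 CPM in knockout, against 28.0 and 22.5 CPM in wild type (-0.17 ± 0.30). Its log2 fold change was 0.0006 without wild type 2. The part of residual blood in the globin values was not tested.
Gnb4, a G protein beta subunit, had 18.2 and 18.8 CPM in knockout, against 28.3 and 26.2 CPM in wild type (-0.56 ± 0.13). Rbm3, an RNA-binding protein induced by cold, had 35.8 and 30.2 CPM in knockout, against 61.6 and 52.7 CPM in wild type (-0.79 ± 0.22). Gadd45g, a stress-inducible gene, had 4.55 and 5.19 CPM in knockout, against 8.93 and 8.54 CPM in wild type (-0.84 ± 0.24). Tent5c, a poly(A) polymerase, showed a similar relative difference, at 5.66 and 3.75 CPM in knockout, against 9.01 and 8.38 CPM in wild type (-0.89 ± 0.25).
The remaining genes lay lower. S100a6, a calcium-binding protein, had 1.61 and 1.35 CPM in knockout, against 2.73 and 5.86 CPM in wild type (-1.54 ± 0.38). The collagen gene Col8a1 had 1.03 and 0.741 CPM in knockout, against 8.80 and 2.28 CPM in wild type (-2.64 ± 0.69), and Col4a3 had 0.713 and 0.785 CPM in knockout, against 4.86 and 1.26 CPM in wild type (-2.02 ± 0.57). Wild type 2 was the highest library for both collagens.

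**Figure D2:**
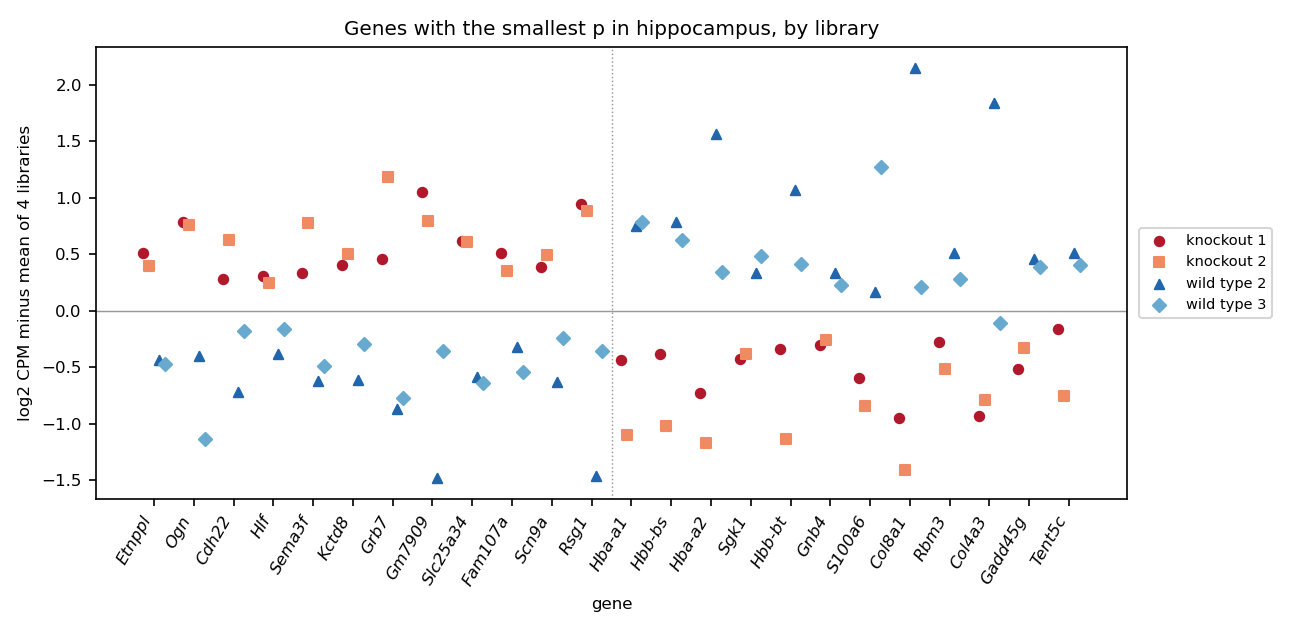
Log2 CPM of the 24 genes with the smallest p, 12 higher and 12 lower in knockout, each minus its mean over the 4 libraries, with a symbol per library. Knockout and wild-type symbols do not overlap because the rule asked for it, and wild type 2 is the highest library for Hba-a2, Col8a1 and Col4a3.

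Ranked by size at an unadjusted p under 0.01, the predicted gene Gm29784 had 10 reads over both knockout libraries and 0 over both wild-type ones, at least 3.66-fold higher against a floor of 3 reads over the group. Gm14209 had 1.16 and 0.829 CPM in knockout, against 0.168 and 0.197 CPM in wild type (2.41 ± 0.77). Col6a4, a collagen VI chain, had 11.996 and 11.4 CPM in knockout, against 4.86 and 1.22 CPM in wild type (1.94 ± 0.55). The other genes of this ranking are among those above.

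DESeq2 on the hippocampal libraries alone, an alternative chosen after seeing the data, called 52 of 21988 genes (0.236%). The genes of this paragraph were named from its calls after their values were seen, and they had an adjusted p of 1 in the edgeR fit to all libraries. Vwf, a clotting glycoprotein of endothelium, had 32.9 and 32.3 CPM in knockout, against 19.0 and 18.4 CPM in wild type (0.80 ± 0.26, adjusted p 0.000614 in that DESeq2 fit). Apod, a lipid-binding apolipoprotein, had 175 and 174 CPM in knockout, against 82.3 and 109 CPM in wild type (0.87 ± 0.42, 6.29e-07). Xdh, which forms uric acid, had 20.7 and 22.3 CPM in knockout, against 12.5 and 12.5 CPM in wild type (0.79 ± 0.23, 0.0109). Each was higher in both knockout libraries.
Tnc, the matrix glycoprotein tenascin C, had 2.68 and 5.15 CPM in knockout, against 13.0 and 9.32 CPM in wild type (-1.51 ± 0.52, 0.00219). Ednrb, an endothelin receptor of astrocytes, had 24.3 and 25.6 CPM in knockout, against 43.2 and 36.1 CPM in wild type (-0.67 ± 0.29, 0.0176). Igfbp4, which binds insulin-like growth factors, had 45.6 and 42.8 CPM in knockout, against 73.0 and 59.3 CPM in wild type (-0.58 ± 0.28, 0.0372). These were lower in both. Of the other genes named here, the same fit also called Aqp4, Calb1, Col8a1, Ddit4, Etnppl, Fam107a, Gfap, Gpr17, Hba-a1, Hba-a2, Hbb-bs, Hbb-bt, Hlf, Hmgcs1, Ogn, Plin4, Rbm3, Sgk1, Slc17a6, Slc25a34, Tshz2, Ugt8a and mt-Nd2, as well as Alb, Bglap3 and mt-Rnr2, whose values are given under the other observations.

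Gene lists are described by how many members were higher or lower and how many did not overlap between genotypes. Over all genes tested, 49.6% were higher and 50.3% lower, 36.6% did not overlap (18.1% higher, 18.6% lower), and the median log2 fold change was -0.0015. The range in brackets after a list's median is that of the median on leaving out each hippocampal library in turn. No member of any of the 45 lists passed the edgeR test on all libraries.

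Genes of cholesterol synthesis, the pathway that builds sterols from acetyl-CoA under the regulator Srebf2, were lower in 19 of 20 cases, 17 of them without overlap. The median log2 fold change was -0.36 (-0.47 to -0.23), beside -0.45 in cerebellum and -0.06 in cortex. Hmgcs1, which makes HMG-CoA, had 122 and 136 CPM in knockout, against 195 and 186 CPM in wild type (-0.56 ± 0.39, adjusted p 0.00127 in DESeq2 on the hippocampal libraries alone). The genotypes did not overlap.
Mvk, mevalonate kinase, had 9.19 and 11.8 CPM in knockout, against 13.4 and 14.4 CPM in wild type (-0.40 ± 0.19). Sc5d, a late desaturase, had 38.0 and 42.1 CPM in knockout, against 48.6 and 56.0 CPM in wild type (-0.39 ± 0.19). Srebf2 had 164 and 184 CPM in knockout, against 193 and 213 CPM in wild type (-0.23 ± 0.14). Fdps, with few counted reads in every library, was the member that was not lower. It had 1.56 and 1.74 CPM in knockout, against 1.34 and 1.65 CPM in wild type. Another gene, Gm43738, overlaps its exons on the same strand, so its level and direction are uncertain. The effect of that overlap on counting was not tested.
Knockout 1 was the lowest library for 17 of the 20 genes and wild type 3 the highest for 17. The median was -0.23 without knockout 1 and -0.23 without wild type 3.

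The Hmgcs1 promoter is shown because it was the one promoter window of the list that held the sterol regulatory element. It is chr13:119690101-119690400, plus strand (RefSeq, GRCm38.p6). Capitals mark that element, searched as TCACNCCAC, and CCAAT boxes, which read ATTGG on this strand, with both strands searched.
Hmgcs1: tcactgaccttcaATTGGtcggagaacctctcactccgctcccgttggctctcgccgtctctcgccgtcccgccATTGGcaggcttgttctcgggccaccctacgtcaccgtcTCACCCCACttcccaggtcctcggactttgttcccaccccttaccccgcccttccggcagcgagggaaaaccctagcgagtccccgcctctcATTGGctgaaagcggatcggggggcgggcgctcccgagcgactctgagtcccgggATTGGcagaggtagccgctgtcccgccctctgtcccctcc
The sterol regulatory element began 137 bases before the listed start. It was found in 1 of 14 genes of the list with a window and in 1.24% of all windows, and CCAAT in 14 of 14 genes and in 37.4% of all windows. The 14 genes had 17 windows, so shares of genes and of windows are not directly comparable here either.

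**Figure D3:**
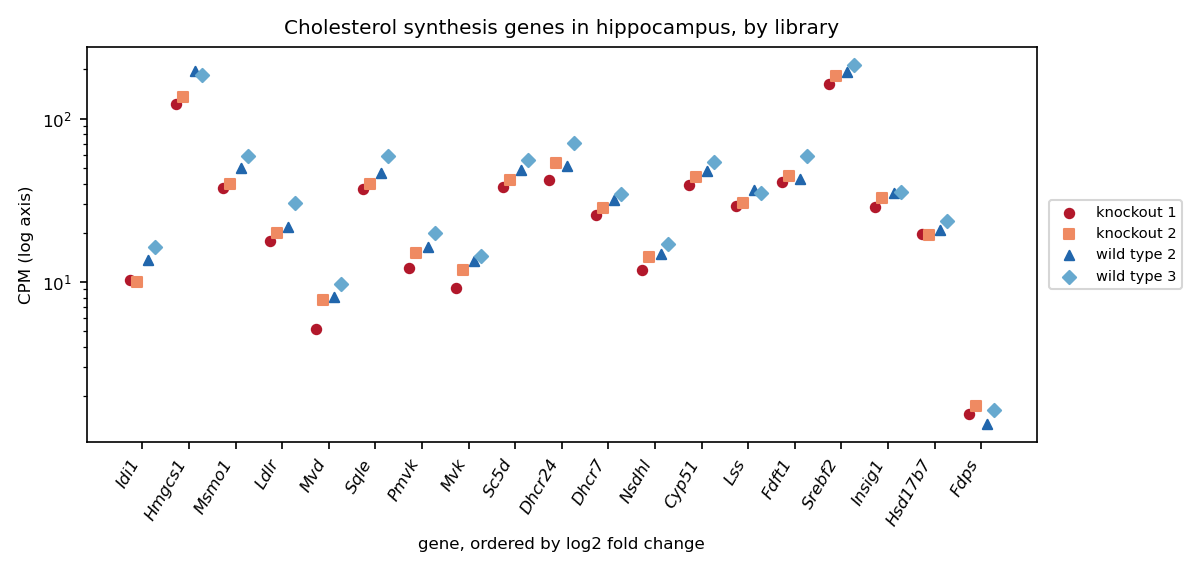
CPM on a log axis of 19 of the 20 cholesterol synthesis genes in the 4 hippocampal libraries, ordered by log2 fold change, with a symbol per library. Both knockout symbols lie below both wild-type symbols in 16 of the genes drawn.

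Among 16 fatty acid desaturases, elongases and synthases, 12 were lower, 9 without overlap, and the median was -0.15 (-0.18 to -0.13). Scd2, a desaturase abundant in brain, had 919 and 954 CPM in knockout, against 1193 and 1184 CPM in wild type (-0.34 ± 0.32). Elovl7 and Elovl1, both elongases, had log2 fold changes of -0.42 ± 0.33 and -0.40 ± 0.32.

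Genes of oligodendrocytes, the myelin-forming cells, were lower in 13 of 13 cases, 7 without overlap. The median was -0.46 (-0.70 to -0.27), beside -0.76 in cerebellum and 0.33 in cortex, with the caution on knockout cortex 2 above. Opalin, a myelin membrane protein, had 4.28 and 9.42 CPM in knockout, against 23.4 and 19.2 CPM in wild type (-1.64 ± 0.83). Ugt8a, which makes galactosylceramide, had 25.3 and 32.1 CPM in knockout, against 53.9 and 48.1 CPM in wild type (-0.83 ± 0.54, adjusted p 0.000499 in DESeq2 on the hippocampal libraries alone). Mbp, myelin basic protein, had 1469.7 and 1948 CPM in knockout, against 2431 and 2255 CPM in wild type (-0.46 ± 0.66). Knockout 1 was the lowest library for each member, and the median was -0.27 without it and -0.70 without wild type 3. The summed level of the list was 3227 and 4336 CPM in knockout, against 5741 and 4805 CPM in wild type.
Markers of oligodendrocyte precursors were lower in 9 of 10 cases, 5 without overlap, with a median of -0.19 (-0.22 to -0.14) and a summed level of 276 and 311 CPM in knockout, against 350.4 and 321 CPM in wild type. Gpr17, of cells about to form myelin, had 27.4 and 35.0 CPM in knockout, against 57.2 and 43.5 CPM in wild type (-0.69 ± 0.62). Pdgfra, the growth factor receptor of precursors, overlapped, with 59.978 and 62.8 CPM in knockout, against 69.7 and 56.0 CPM in wild type (-0.03 ± 0.34).

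Markers of neighbouring tissues also differed. Choroid plexus markers were lower in 13 of 13 cases, 9 without overlap, and their summed level was 234 and 258 CPM in knockout, against 1837 and 348 CPM in wild type. Ttr, the thyroxine carrier of this epithelium, had 42.9 and 35.2 CPM in knockout, against 995 and 68.6 CPM in wild type (-3.77 ± 2.000). Wild type 2 was the highest library for every member. The median was -1.77 (-2.38 to -0.47) over the 4 libraries and -0.47 without wild type 2. Of 12 meningeal markers, 5 were higher and 7 lower, 4 and 4 without overlap. Their median was -0.48 (-0.79 to 0.40), which was 0.40 without wild type 2 and 0.07 without knockout 1. Their summed level overlapped, at 219 and 294 CPM in knockout, against 294 and 121 CPM in wild type. The part of attached choroid plexus or meninges in the values of the collagens above was not tested.
Striatal markers were lower in 12 of 13 cases, 8 without overlap, with a median of -0.52 (-0.63 to -0.34), which was -0.34 without wild type 3. Markers of subiculum and entorhinal cortex, Tshz2 among them, were higher in 7 of 8, 7 without overlap, with a median of 0.35 (0.33 to 0.46). Slc17a6, a vesicular glutamate transporter, had 12.8 and 19.9 CPM in knockout, against 8.22 and 7.51 CPM in wild type (1.06 ± 1.38). The summed level of the subicular list was 339.6 and 354 CPM in knockout, against 278 and 273 CPM in wild type.
Cerebellar markers were higher in 13 of 14 cases, 5 without overlap, with a median of 0.42 (0.08 to 0.78) and 0.08 without wild type 3 and 0.78 without wild type 2. Gabra6, a receptor subunit of cerebellar granule cells, had 7.49 and 4.62 CPM in knockout, against 8.47 and 0 CPM in wild type, and 295 to 516 CPM in the cerebellar libraries. The part of where the tissue was cut in these differences was not tested.

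Genes known to respond to glucocorticoids differed in both directions, with 8 of 18 higher and 10 lower, 5 and 7 without overlap, and a median of -0.02 (-0.07 to 0.01). Ddit4, an inhibitor of mTORC1 signalling, had 19.9 and 19.0 CPM in knockout, against 35.3 and 29.0 CPM in wild type (-0.72 ± 0.21). Errfi1, an inhibitor of EGF receptors, had 39.6 and 43.6 CPM in knockout, against 56.0 and 58.9 CPM in wild type (-0.47 ± 0.18). Nfkbia, the inhibitor of NF-kB, had 10.8 and 10.1 CPM in knockout, against 18.8 and 13.5 CPM in wild type (-0.62 ± 0.25). These were lower in both knockout libraries, as was Sgk1.
Plin4, a lipid droplet coat protein, had 64.6 and 86.0 CPM in knockout, against 38.8 and 27.0 CPM in wild type (1.19 ± 0.44), and Sult1a1, a sulfotransferase, had 21.7 and 19.3 CPM in knockout, against 15.5 and 10.4 CPM in wild type (0.66 ± 0.28). Both were higher without overlap. The widely used response genes Fkbp5 and Tsc22d3 had log2 fold changes of 0.14 ± 0.34 and 0.03 ± 0.21. The receptors themselves, Nr3c1 for glucocorticoids and Nr3c2 for mineralocorticoids, had -0.02 ± 0.16 and -0.26 ± 0.26.

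Acute phase and vascular inflammation genes were higher in 14 of 15 cases, 7 without overlap. The median was 0.37 (0.28 to 0.79), beside 0.76 in cerebellum and 0.98 in cortex, and it was 0.79 without wild type 3. Lcn2, a secreted protein that binds bacterial iron carriers, had 5.22 and 2.83 CPM in knockout, against 1.30 and 0.157 CPM in wild type (2.47 ± 1.05). Selp, the endothelial adhesion molecule P-selectin, had 15 reads over both knockout libraries and 0 over both wild-type ones, at least 5.49-fold higher against the floor of 3 reads, with the caution on opposite-strand genes above. Socs3, an inhibitor of cytokine signalling, had 1.65 and 2.05 CPM in knockout, against 0.587 and 1.14 CPM in wild type (1.09 ± 0.40). Serpina3n, a protease inhibitor, overlapped between genotypes, with 88.2 and 75.0 CPM in knockout, against 65.3 and 76.2 CPM in wild type (0.21 ± 0.97).
Interferon response genes were lower in 16 of 22 cases, 6 without overlap, with a median of -0.12 (-0.27 to 0.03) and 0.03 without wild type 3. Bst2, which tethers virions to the cell, had 0.713 and 0.741 CPM in knockout, against 1.68 and 1.49 CPM in wild type (-1.12 ± 0.37).

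Immediate early genes, which neuronal activity induces, were lower in 19 of 25 cases, 8 without overlap, with a median of -0.28 (-0.51 to -0.03). Wild type 3 was high. Arc, which regulates AMPA receptor uptake, had 92.4 and 92.9 CPM in knockout, against 108 and 219 CPM in wild type (-0.82 ± 0.46). Fos had 4.46 and 6.37 CPM in knockout, against 6.33 and 17.8 CPM in wild type (-1.16 ± 0.96). Dusp6, a phosphatase of ERK, had 48.4 and 44.7 CPM in knockout, against 59.2 and 76.3 CPM in wild type (-0.54 ± 0.22). The median was -0.03 without wild type 3 and -0.51 without wild type 2. Of 18 clock genes, 8 were higher and 10 lower, with a median of -0.03 (-0.04 to 0.06). Clock had -0.03 ± 0.13 and Per2 -0.04 ± 0.33 as log2 fold changes.

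**Figure D4:**
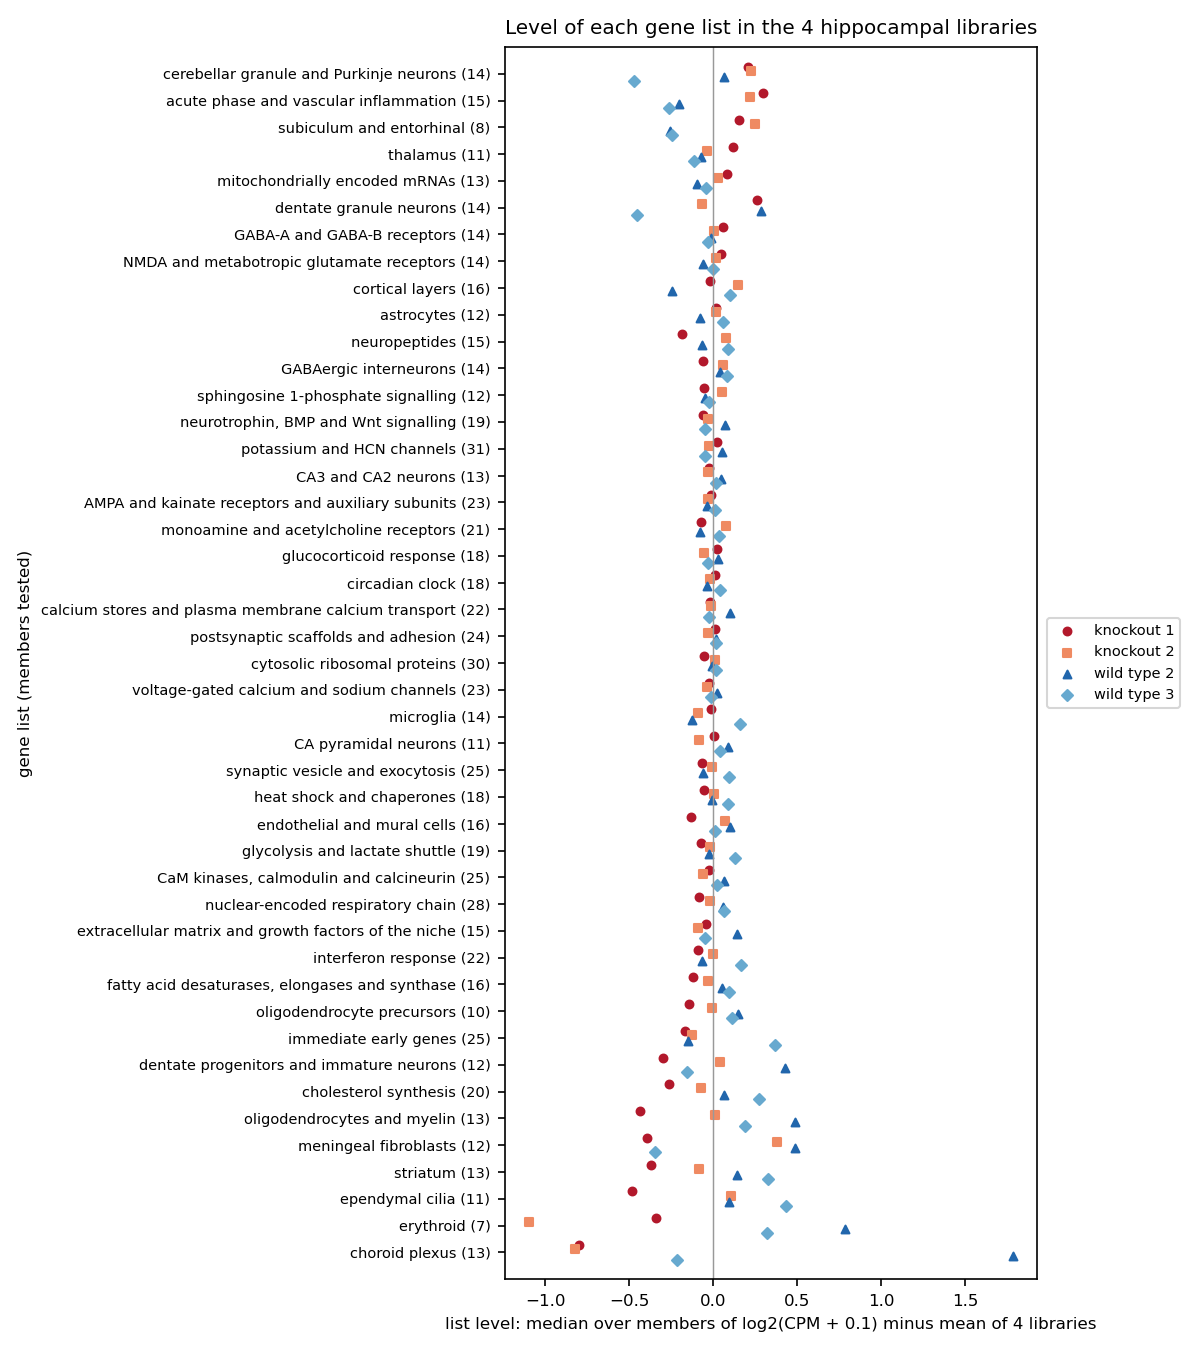
Level of each of the 45 gene lists in the 4 hippocampal libraries, as the median over members of log2(CPM + 0.1) minus each gene's mean over the libraries, with a symbol per library. The choroid plexus list is highest in wild type 2 and the immediate early genes in wild type 3, while both knockout libraries lie below both wild-type ones for cholesterol synthesis and above them for the subicular list.

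The median of CA pyramidal markers kept its sign on leaving out each hippocampal library, while those of CA3 and CA2 and of dentate markers did not. Of 13 CA3 and CA2 markers, 6 were higher and 7 lower, 2 and 4 without overlap, with a median of -0.02 (-0.05 to 0.03). CA pyramidal markers were lower in 8 of 11 cases, 3 without overlap, with a median of -0.07 (-0.16 to -0.10). Neurod6, a transcription factor of these neurons, had 234 and 210.1 CPM in knockout, against 246 and 238 CPM in wild type (-0.13 ± 0.15). Dentate granule markers were higher in 11 of 14 with a median of 0.09, which was 0.58 without wild type 2, 0.27 without knockout 2, -0.08 without knockout 1 and -0.17 without wild type 3. Prox1 varied within each genotype, at 230.0 and 168 CPM in knockout, against 241 and 137 CPM in wild type (0.07 ± 0.43). The granule marker without overlap was Calb1, a calcium buffer, with 127 and 101 CPM in knockout, against 74.4 and 65.5 CPM in wild type (0.71 ± 0.22).
Markers of dentate progenitors and immature neurons were lower in 8 of 12 cases, 3 without overlap, with a median of -0.33 (-0.65 to 0.08) and 0.08 without wild type 2. Top2a, of dividing cells, had 0.535 and 0.436 CPM in knockout, against 3.40 and 1.30 CPM in wild type (-2.26 ± 0.90). Markers of inhibitory neurons were higher in 8 of 14 cases, 1 without overlap, and lower in 6, 4 without overlap. The median was 0.04 (-0.05 to 0.07). Among these markers, the neuropeptide Npy had 15.5 and 18.4 CPM in knockout, against 30.2 and 22.7 CPM in wild type (-0.64 ± 0.26). Gad1, which makes GABA, had 235 and 238 CPM in knockout, against 223 and 231 CPM in wild type (0.06 ± 0.17). The neuropeptides Sst and Cck were lower without overlap, at -0.34 ± 1.36 and -0.32 ± 0.17, and Pvalb overlapped.

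Synaptic genes had small medians. Of 25 genes for CaM kinases, calmodulin and calcineurin, 9 were higher and 16 lower, 4 and 10 without overlap, with a median of -0.09 (-0.11 to -0.04). Camk2a, a main kinase of excitatory synapses, had 4735 and 4345 CPM in knockout, against 4726 and 4514 CPM in wild type (-0.03 ± 0.23). Camk2d, another isoform of that kinase, had 54.5 and 76.8 CPM in knockout, against 37.1 and 49.1 CPM in wild type (0.61 ± 0.28). The first overlapped between genotypes and the second did not.
Of 23 genes for AMPA and kainate receptors, 11 were higher and 12 lower, with a median of -0.02 (-0.03 to 0.01). Grik1, a kainate receptor subunit, had 27.3 and 28.5 CPM in knockout, against 21.0 and 22.6 CPM in wild type (0.36 ± 0.14), and Gria1, an AMPA receptor subunit, had -0.04 ± 0.17 as log2 fold change. NMDA and metabotropic glutamate receptors were higher in 9 of 14 cases, with a median of 0.07 (0.02 to 0.10). Synaptic vesicle genes were lower in 19 of 25, with a median of -0.07 (-0.10 to 0.02). Potassium and HCN channels (31 genes) and calcium and sodium channels (23 genes) had medians of -0.01 (-0.04 to 0.05) and -0.04 (-0.05 to 0.01).

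Astrocyte markers were split, with 7 of 12 higher, 6 without overlap, and 5 lower, 3 without overlap. Aqp4, the water channel of astrocyte endfeet, had 84.4 and 89.0 CPM in knockout, against 149.5 and 133 CPM in wild type (-0.70 ± 0.27). Gfap, the glial filament protein, had 222 and 262 CPM in knockout, against 340.4 and 412 CPM in wild type (-0.63 ± 0.56). Gja1, a connexin, had 136 and 136 CPM in knockout, against 178 and 177 CPM in wild type (-0.38 ± 0.18). Those were lower in both knockout libraries, while the connexin Gjb6 was higher, with 45.9 and 45.1 CPM in knockout, against 33.7 and 31.2 CPM in wild type (0.49 ± 0.18). Microglial markers had a median of -0.05 (-0.14 to 0.09), with 6 of 14 higher.

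Nuclear-encoded genes of the respiratory chain were lower in 28 of 28 cases, 12 without overlap, with a median of -0.11 (-0.15 to -0.07). It was -0.07 without knockout 1. In cerebellum 25 of 28 were lower, and in cortex 28 of 28 were higher, with the caution on knockout cortex 2 above. Atp5b, an ATP synthase subunit, had 642 and 691 CPM in knockout, against 746 and 723 CPM in wild type (-0.14 ± 0.22). Mitochondrially encoded mRNAs were higher in 12 of 13 cases, 6 without overlap, with a median of 0.09 (0.06 to 0.16). Among them mt-Nd2, a complex I subunit, had 1584 and 1389 CPM in knockout, against 1116 and 1118 CPM in wild type (0.41 ± 0.25). Glycolysis genes were lower in 17 of 19 cases, 7 without overlap, with a median of -0.09 (-0.19 to -0.03). It was -0.19 without wild type 2 and -0.03 without wild type 3.

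The difference between genotypes in hippocampus was set against that in the other regions by interaction terms of the same edgeR fit. Of 24680 genes, 0 passed against cerebellum and 0 against cortex (0% each), with 368 (1.49%) and 782 (3.17%) at an unadjusted p under 0.05. Against cerebellum, the hippocampal log2 fold change exceeded the cerebellar one by 1.27 ± 0.26 in Kctd8, 1.95 ± 0.41 in Ogn and 1.001 ± 0.25 in Cdh22. It was below it in Hbb-bs (-1.73 ± 0.35), Hba-a1 (-1.51 ± 0.32) and 1700047I17Rik2 (-2.94 ± 0.63). In cortex these globins were lower in knockout too, with log2 fold changes of -0.44 ± 0.27 in Hbb-bs and -0.51 ± 0.25 in Hba-a1.
Against cortex, the differences were 1.95 ± 0.45 in Ogn, 0.98 ± 0.24 in the potassium channel Kcnk9 and 2.17 ± 0.57 in Gm7909 on the higher side. They were -2.49 ± 0.53 in Ccdc162, -2.81 ± 0.61 in Hdc, which makes histamine, and -3.36 ± 0.77 in Epn3, an endocytic adaptor, on the lower side. The adjusted p of these genes was 1 against cerebellum and 0.926 against cortex (edgeR). Knockout cortex 2 stood apart from the other cortical libraries. Tcf7l2, a thalamic marker, had 79.4 CPM there, against 9.80 CPM in knockout cortex 1 and 11.0 and 10.3 CPM in wild-type cortex. Without that library, 362 genes had an unadjusted p under 0.05 against cortex.

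**Figure D5:**
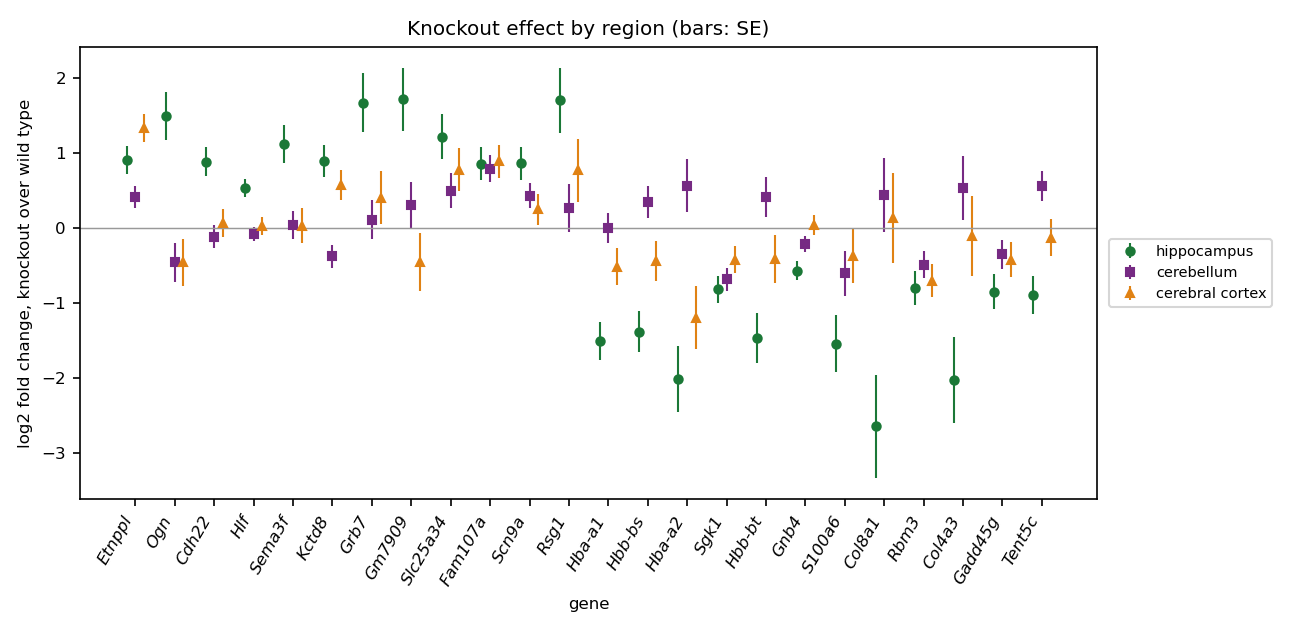
Log2 fold change of knockout over wild type, with SE as bars, in hippocampus, cerebellum and cerebral cortex for the 24 genes with the smallest p in hippocampus. Fam107a has nearly the same value in each region, and the globins lie below 0 in hippocampus and cortex and at or above 0 in cerebellum.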

How the data were processed

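Counts of reads per gene in 14 libraries were deposited by the authors as 1 table of raw, not normalized whole numbers. Per the submitters' processing notes, Trim Galore 0.6.4, cutadapt 2.10, STAR 2.7.3a and featureCounts 2.0.1 were used with GRCm38.p6 (mm10). The sources used here do not give the annotation release or how strand and multiply mapped reads were handled. Symbols came from GENCODE M21 (48058 of 48440 identifiers matched). Depth was 20.1 to 38.8 M reads per library.

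Genes were kept by filterByExpr (24680), scaled by TMM and tested with edgeR 4.0.16 (R 4.3.3, robust quasi-likelihood, 8 residual degrees of freedom) on all 14 libraries in 6 groups of region and genotype. The SE is the absolute log2 fold change over the root of F. Alternatives used limma 3.58.1, statmod 1.5.0 and DESeq2 1.42.0, other scalings, filters and sets of libraries. A fold against 0 reads used a floor of 3 reads over the group, and floors cover counting error only. The test script was tested on simulated data.

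The members and lists were chosen with earlier results of these data known. Named genes were, per direction, the 12 with the smallest p, no overlap between genotypes and an average log2 CPM no lower than 1, the 4 with the largest difference at p under 0.01, 3 per interaction, and for each list the 2 with the smallest p and the most abundant. Other list members were chosen after their values were seen. Single values of some list members are not reported here, though the counts and medians of their lists include them.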

Additional observations from a re-analysis of the deposited data

How the results depend on the processing

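The count of genes passing an adjusted p of 0.05 in hippocampus was 0 in edgeR on all 14 libraries. It stayed at 0 with RLE or upper-quartile scaling, without a filter on low counts, with a stricter filter, in limma voom, with hippocampal and cortical libraries, and on leaving out each hippocampal library in turn (0 to 0), where the lone library left in a group was assumed to vary like the others. It was 2 in DESeq2, 3 in limma voom with library quality weights and 4 in edgeR on the hippocampal libraries alone. Of the fits chosen after seeing the data, DESeq2 on the hippocampal libraries alone gave 52, and limma voom on them, edgeR without knockout cortex 2 and edgeR on hippocampal and cerebellar libraries gave 0. At an unadjusted p under 0.05 limma voom with quality weights gave 1569 genes and edgeR on the hippocampal libraries alone 1492, against 472. The genotypes share only the number 2 in hippocampus, so no pairs can be formed there. limma voom with a random effect of genotype and number gave 0 genes (418 unadjusted). A replicate block on the number across all regions gave 0 genes (597 unadjusted). It links equal numbers of different genotypes, a link that the labels do not state. Under it the log2 fold change had the other sign for Fkbp5 -0.17, Fos 0.13, Gria1 0.00279, Nr3c1 0.0669, Per2 0.25, Tsc22d3 -0.0875. On leaving out 1 hippocampal library the sign also turned for Alas2 (-0.32 to 0.000601), Camk2a (-0.0921 to 0.0354), Clock (-0.0842 to 0.0115), Fkbp5 (-0.0608 to 0.37), Gria1 (-0.15 to 0.0796), Nr3c1 (-0.11 to 0.0678), Pdgfra (-0.19 to 0.13), Per2 (-0.26 to 0.21), Prox1 (-0.28 to 0.54) and Tsc22d3 (-0.0349 to 0.0959). The cause of these changes was not tested. Of 855 list medians recomputed under 19 alternatives, 768 moved by less than the spread between replicates and 87 by more. Under the replicate block the median was -0.23 for striatal markers, -0.06 for immediate early genes, 0.01 for interferon response genes and -0.21 for meningeal markers, and limma voom gave 0.68 for acute phase genes and -0.14 for dentate progenitors. With 2 libraries a genotype, the design has few degrees of freedom in hippocampus itself.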

Other observations

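Some further transcripts stood out by eye and were named after their values were seen. Alb, the serum albumin of liver, had 43 and 37 reads in knockout, against 1 and 6 reads in wild type. Its log2 fold change was 3.60 ± 0.98, beside 7.52 ± 1.38 in cerebellum and 1.67 ± 1.25 in cortex. Bglap3, of the osteocalcin family of bone, had 14 and 63 reads in knockout, against 0 and 1 reads in wild type. Its log2 fold change was 6.07 ± 1.33, beside 0.42 ± 1.02 in cerebellum and -0.47 ± 0.78 in cortex. The mitochondrial ribosomal RNA mt-Rnr2 had 7389 and 4479 CPM in knockout, against 2157 and 1915 CPM in wild type, a log2 fold change of 1.54 ± 1.67. DESeq2 on the hippocampal libraries alone called these 3 genes, with adjusted p-values of 0.0109, 0.0384 and 0.0141, while edgeR on all libraries gave 1 for each.

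Gene classes were counted over genes with a mean of at least 1 CPM in hippocampus. By class, 913 of 1295 loci of the class TEC, loci awaiting experimental support, and 322 of 504 lincRNAs were higher in knockout, with medians of 0.14 and 0.11, beside 6144 of 14082 protein-coding genes with a median of -0.02. Most antisense genes (513 of 870), processed transcripts (188 of 298) and snRNAs (34 of 47) were also higher. Most miRNAs were not (41 of 94 higher), nor most of the class misc_RNA (18 of 43). The genes of a class are not independent of each other, and the difference between classes was not tested.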
